A study of Mus musculus with 2 samples.

Results

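The 6 Dlx genes of the mouse lie in 3 pairs, and the CTCF binding sites around those pairs were described in the hindbrain of newborn mice. A site was taken when its summit lay between 150 kb before and 150 kb after a pair. Of the 62686 reproducible peaks of the study, 47 met this rule. They comprised 29 around Dlx3-Dlx4 on chromosome 11, 9 around Dlx1-Dlx2 on chromosome 2 and 9 around Dlx5-Dlx6 on chromosome 6. CTCF ChIP-seq had been run on 1 group, hindbrain of B6NCrl mice at postnatal day 0, with an antibody against CTCF. The tissue was pulverised after several dissections had been pooled, and the sex of the animals was not recorded. The 2 libraries, numbered as biological replicates 1 and 2, carry the same biosample and donor entries, and their spread may therefore be technical. Peaks hold no expression values, so the tissue label could not be checked against marker genes, and cell types within the pooled tissue cannot be told apart.

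Dlx genes encode homeodomain transcription factors related to the Distal-less gene of Drosophila. The genes of a pair are transcribed towards each other, so the promoters lie at the outer ends of the pair. Shared regulatory DNA lies in the spacer and beyond the ends. One member of each pair belongs to the Dlx1, Dlx4 and Dlx6 branch of the family and the other to the Dlx2, Dlx3 and Dlx5 branch. Dlx1, Dlx2, Dlx5 and Dlx6 are known for driving the production of GABAergic neurons in the ventral forebrain and for patterning the branchial arches. Dlx5 and Dlx6 also act in bone and limb, and Dlx3 acts in skin, hair, teeth and placenta. CTCF is a zinc finger protein that binds an asymmetric core motif and, with cohesin, anchors chromatin loops between motifs that point towards each other.

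The sequences on which the comparison of the 6 genes turned are given first, as 54 bases on mm10 centred on the best match to the CTCF core motif. Each is written 5′ to 3′ on the strand of the match, and capitals mark the 14 matched bases. The first 4 lie under the motif-bearing peaks closest upstream of Dlx3, Dlx2 and Dlx5.
Dlx3, 2942 bp upstream, chr11:95117116-95117169, plus strand: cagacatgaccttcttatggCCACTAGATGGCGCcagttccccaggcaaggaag
Dlx3, 1413 bp upstream, chr11:95118679-95118732, plus strand: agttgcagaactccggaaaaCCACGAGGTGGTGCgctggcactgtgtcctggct
Dlx2, 1273 bp upstream, chr2:71548004-71548057, minus strand: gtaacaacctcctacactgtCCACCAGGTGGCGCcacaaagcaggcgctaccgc
Dlx5, 3044 bp upstream, chr6:6885104-6885157, minus strand: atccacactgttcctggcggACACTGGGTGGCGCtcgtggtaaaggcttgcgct
The nearest motif-bearing peaks upstream of Dlx4 and Dlx1 had these matches.
Dlx4, 14633 bp upstream, chr11:95160890-95160943, minus strand: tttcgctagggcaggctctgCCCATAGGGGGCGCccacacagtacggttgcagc
Dlx1, 50112 bp upstream, chr2:71477968-71478021, minus strand: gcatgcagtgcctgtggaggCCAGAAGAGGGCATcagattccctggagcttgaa
The strongest peak of the Dlx1-Dlx2 window and the second strongest of the Dlx5-Dlx6 window are shown because both lie far outside the pair.
Beyond Dlx2, chr2:71598996-71599049, plus strand: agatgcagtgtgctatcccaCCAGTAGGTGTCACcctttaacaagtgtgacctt
Beyond Dlx5, chr6:6915319-6915372, minus strand: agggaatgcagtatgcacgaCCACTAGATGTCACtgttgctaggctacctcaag
None of these stretches overlaps an annotated UTR. Among the first 4 matches, any pair shared 10 to 12 of the 14 matched bases but 5 to 13 of the 40 flanking bases. The likeness of the matched bases was fixed by the search for 1 consensus. Each of these 4 matches held a CpG, as did the match on the Dlx4 side. The matches upstream of Dlx1, beyond Dlx2 and far beyond Dlx5 held none. Of all motif-bearing optimal peaks, 32.5% had a CpG in the match. Among strong peaks whose sequences are not listed, those 141.0 and 149.7 kb beyond Dlx3 also had one. The peak 122.2 kb beyond Dlx5 had none, so a CpG was not limited to matches near a Dlx gene.

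The signal that the authors deposited for a peak is a score of the peak caller whose unit is not given, and ranks count from 1 at the strongest peak. Over all 62686 reproducible (optimal IDR) peaks the median signal was 73.9, with quartiles of 36.8 and 191.1 and a maximum of 684.6. Each library's own list held 300000 peaks, and every one of the 47 Dlx peaks overlapped a peak in both lists. The optimal set came from IDR analysis of these lists, so that overlap is no separate support for the Dlx peaks. The files give no read counts, so depth is unknown, and the intervals below cover counting error over peaks or genes only. The peaks of a window come from the same libraries and are not replicates of a condition.

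Dlx3 had the strongest CTCF binding of the family directly outside its promoter. The peak 2942 bp upstream of its 5′ end (chr11:95117001-95117376) had a signal of 512.8 and stood at rank 226 of the optimal set, at rank 327 in the list of replicate 1 and at rank 197 in that of replicate 2. The peak 1413 bp upstream (chr11:95118584-95118843) had a signal of 395.7 and ranked 2784 in replicate 1 and 2335 in replicate 2. Both summits were intergenic, and the farther one lay in annotated repeat sequence. Its match to the core motif was perfect, that of the nearer peak had 2 mismatches, and both lay on the strand of Dlx3, pointing at the gene. Dlx4, at the other end of the pair, had no comparable neighbour. Its first upstream peak lay 14.6 kb away (chr11:95160736-95161055), with a signal of 39.5 and ranks of 44137 in replicate 1 and 52045 in replicate 2. That signal was below the median of all optimal peaks, although its motif, with 2 mismatches, also lay on the gene's strand.

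Dlx2, which acts with Dlx1 in forebrain interneuron progenitors, carried a single peak close to its promoter. It lay 1273 bp upstream (chr2:71547911-71548130), with a signal of 246.8, a perfect match on the strand of Dlx2, and ranks of 11434 in replicate 1 and 11233 in replicate 2. No optimal peak lay between this site and the far side of Dlx1. Upstream of Dlx1 the first peak was 50.1 kb away, in an intron of Metap1d, which encodes a mitochondrial methionine aminopeptidase (chr2:71477841-71478160). It had a signal of 42.4, ranked 43109 in replicate 1 and 46161 in replicate 2, lay in repeat sequence, and its motif lay on the strand opposite to Dlx1. The body of Metap1d ends 2.92 kb before Dlx1, and no optimal peak lay in that interval.

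Dlx5 was the only Dlx gene with an optimal peak within 1 kb of a start site, and that peak was weak. Its summit lay 798 bp upstream (chr6:6882723-6883042), with a signal of 24.3, no motif, and ranks of 67855 in replicate 1 and 97521 in replicate 2, both outside the strongest 62686 of the library. The strong peak of this gene lay 3044 bp upstream (chr6:6885011-6885260), with a signal of 372.4, a match with 2 mismatches on the strand of Dlx5, and ranks of 3246 in replicate 1 and 3918 in replicate 2. Dlx6 had no upstream peak in its window at all. The first one lay 399.4 kb away (chr6:6463783-6464102), with a signal of 40.9, a motif with 2 mismatches on the strand of Dlx6, and ranks of 47847 in replicate 1 and 42559 in replicate 2.

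Dlx2, Dlx3 and Dlx5 therefore each had a motif-bearing peak within 5 kb upstream whose motif lay on the gene's own strand, and Dlx1, Dlx4 and Dlx6 had none. This comparison was drawn up after the values had been seen, so it is a description of 6 genes. Of the 21938 protein-coding genes, 11% had such a peak, 8.93% had one with the motif on the other strand, and 19.2% had one on either strand. With a signal of 200 or more and the motif on the gene's strand the share was 4.47%, and the upstream peaks of Dlx2, Dlx3 and Dlx5 all met that limit. The split followed the branches of the family, with the Dlx2, Dlx3 and Dlx5 branch on the side with a peak. Dlx5 left the group when at most 1 mismatch was allowed, or when the upstream limit was 2500 bp, and 2 of 6 genes then remained, beside 5.21% and 7.55% of all protein-coding genes.

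**Figure D1:**
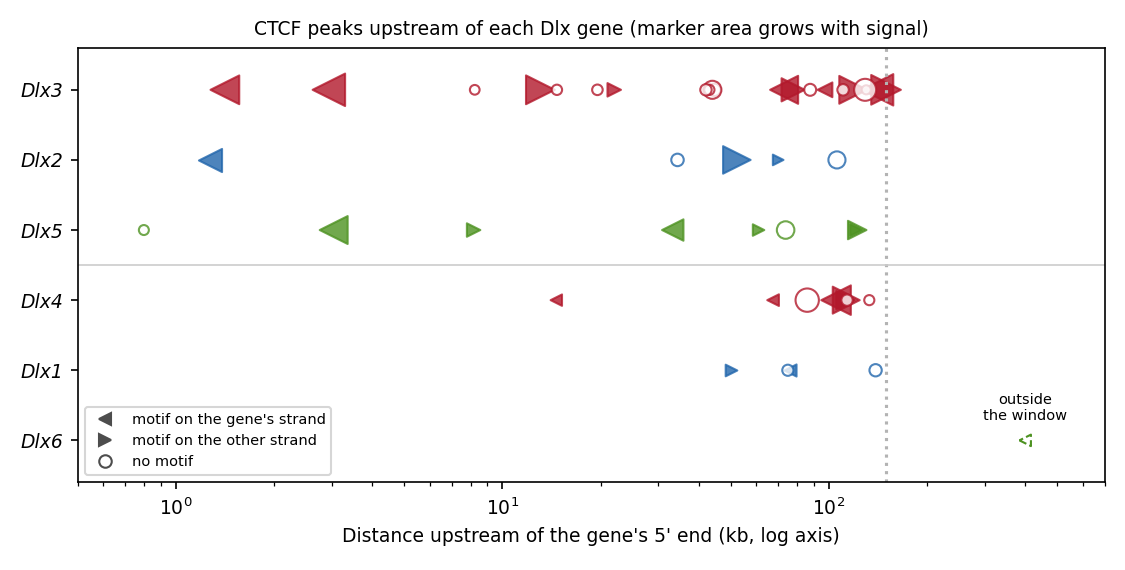
Distance of every optimal CTCF peak upstream of each Dlx gene's 5′ end, in kb on a log axis, with 1 line per gene, triangles for motif-bearing peaks (pointing at the gene where the motif lies on its strand), open circles for peaks without a motif, and area growing with the signal. Dlx3, Dlx2 and Dlx5 on the top 3 lines have a filled triangle pointing at the gene between 1.27 and 3.04 kb, whereas the first peak of Dlx4 is at 14.6 kb, that of Dlx1 at 50.1 kb and that of Dlx6, outside the window marked by the dotted line, at 399.4 kb.

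The promoters themselves were mostly free of optimal peaks. With a summit within 1 kb of any annotated start site, 1 of the 6 Dlx genes was occupied (16.7%, Wilson 95% interval 3.01 to 56.4), beside 39.8% of all protein-coding genes. The interval for 6 genes includes the share of all genes. Weaker peaks of the pooled list, which joins both libraries and was not filtered for reproducibility, lay in the promoters of Dlx1 (3 peaks, up to a signal of 10.3), Dlx2 (3, up to 19.5) and Dlx6 (1, 17.1), and in none of those of Dlx3 and Dlx4. The Dlx5 peak of 24.3 was the highest of its 2. The median signal of the pooled list was 10.9.

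Between the outer ends of the pairs, the DNA that holds both genes and their spacer, there was 1 optimal peak in all. The Dlx3-Dlx4 pair, 26145 bp long with a spacer of 15150 bp, held 0 optimal peaks, and the Dlx1-Dlx2 pair, 18642 bp long with a spacer of 9426 bp, held 0. The Dlx5-Dlx6 pair, 18752 bp long with a spacer of 9236 bp, held 1. The pairs together span 63.5 kb, in which the mean density of the assembly would give 1.46 peaks, so the count is near that mean. Windows around coding genes were denser, with a median of 39.1 peaks per Mb. The Dlx3-Dlx4, Dlx1-Dlx2 and Dlx5-Dlx6 windows had 88.9, 28.2 and 28.2 per Mb. The Dlx5-Dlx6 peak (chr6:6870403-6870722) lay in an intron of Dlx6os1, the noncoding transcript antisense to Dlx6, in the spacer known to hold forebrain enhancers. It had a signal of 42.0, no motif, and ranks of 40293 in replicate 1 and 53213 in replicate 2. Only weak peaks of the pooled list lay inside the others, 6 in Dlx3-Dlx4 with a signal of at most 14 and 6 in Dlx1-Dlx2 with a signal of at most 19.5, beside 3 in Dlx5-Dlx6 with at most 17.6.

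The stretches without an optimal peak that held the Dlx 5′ ends differed in length. Dlx3 and Dlx4 both lay in a gap of 42.2 kb between neighbouring summits, and Dlx1 and Dlx2 in a gap of 70.0 kb. Dlx5 lay in a gap of 12.3 kb, while Dlx6 lay in a gap of 406.6 kb. Over the 62657 gaps between neighbouring optimal summits the median was 14.7 kb and the 90th percentile 88.5 kb, and 1.07% were longer than that of Dlx6. Counted by genes, the median gap around a coding gene's 5′ end was 37.9 kb, and 9.45% of 21648 coding genes lay in a gap at least as long as that of Dlx6. The share was 32.5% for Dlx1 and Dlx2, 46.7% for Dlx3 and Dlx4, and 78.7% for Dlx5. The Dlx6 gap ran from the spacer peak past Sem1, which encodes a small proteasome subunit and whose nearest end lies 284.7 kb from Dlx6, and it held 21 peaks of the pooled list, none above a signal of 18.5.

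**Figure D2:**
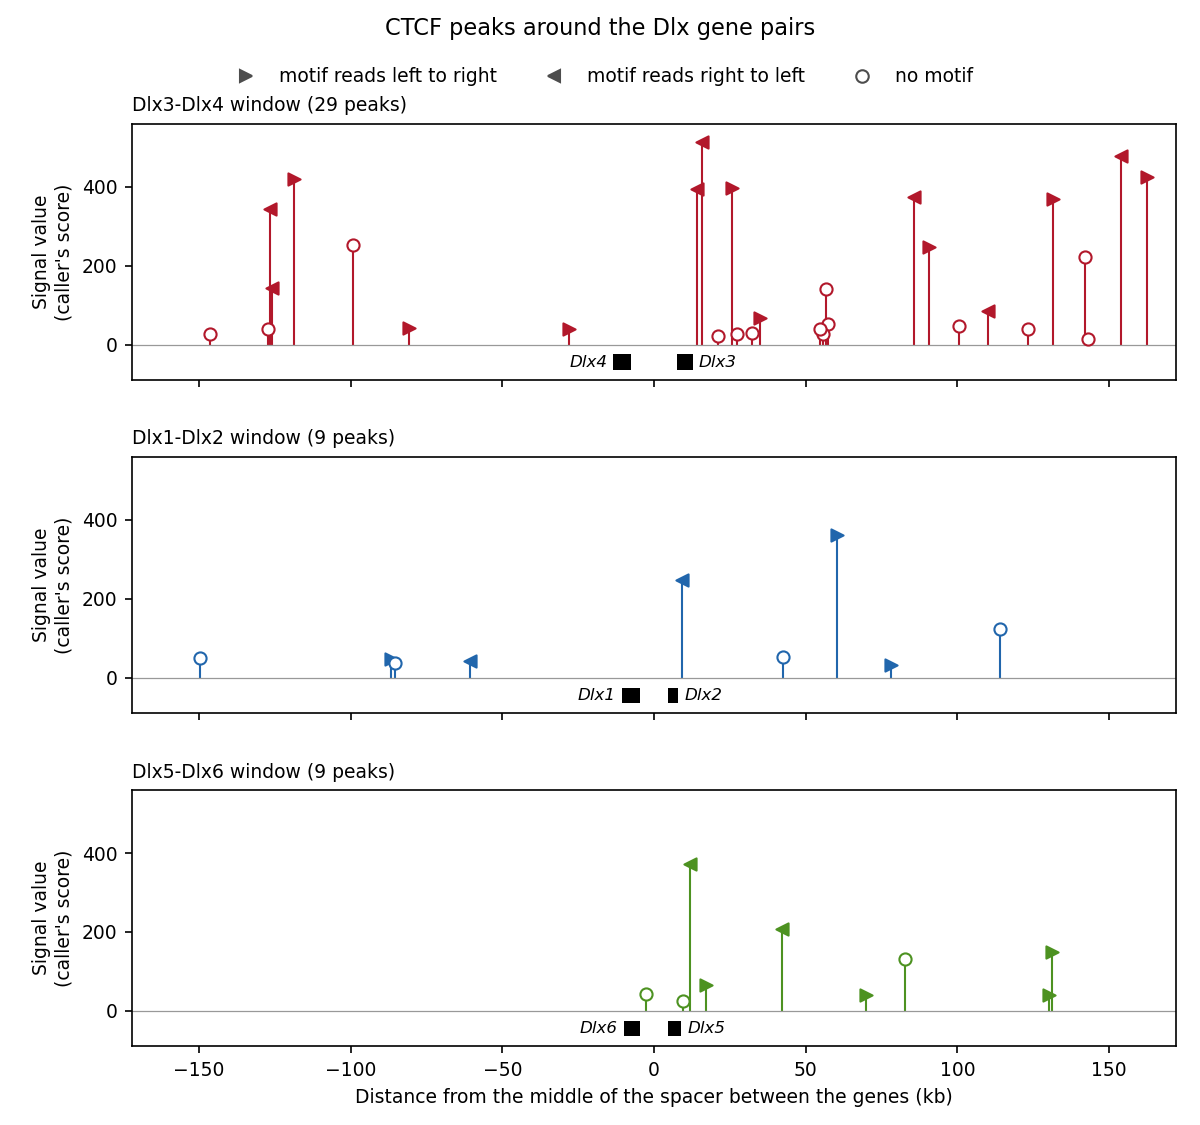
Signal of every optimal CTCF peak (score of the peak caller) against the distance in kb from the middle of the spacer, in 1 panel per pair, with black boxes for the Dlx genes, triangles for the direction of the motif and open circles for peaks without one. The Dlx3-Dlx4 panel is drawn reversed so that Dlx4, Dlx1 and Dlx6 stand on the left, and the peaks beside Dlx3 (512.8 and 395.7), Dlx2 (246.8) and Dlx5 (372.4) stand just right of their genes and point left, while the left side of the Dlx5-Dlx6 panel is empty beyond the pair.

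The Dlx3-Dlx4 window was more densely bound than the Dlx1-Dlx2 and Dlx5-Dlx6 windows, which were alike. The Dlx3-Dlx4 window (326.1 kb) held 88.9 optimal peaks per Mb (exact Poisson 95% interval 59.5 to 127.7), the Dlx1-Dlx2 window (318.6 kb) 28.2 (12.9 to 53.6) and the Dlx5-Dlx6 window (318.8 kb) 28.2 (12.9 to 53.6). Density was 3.15 times higher around Dlx3-Dlx4 than around Dlx1-Dlx2 (exact conditional binomial 95% interval 1.45 to 7.56) and 3.15 times higher than around Dlx5-Dlx6 (1.45 to 7.56). The ratio of Dlx1-Dlx2 to Dlx5-Dlx6 was 1.00 with an interval of 0.352 to 2.84, which leaves room for a difference in either direction. With 50 kb on each side, where the Dlx1-Dlx2 window held 2 peaks, that ratio was 0.400 (0.0381 to 2.45). The ratio of Dlx3-Dlx4 to Dlx1-Dlx2 was then 5.64 (1.26 to 51.9). With 50 kb on each side the ratio of Dlx3-Dlx4 to Dlx5-Dlx6 was 2.26 and its interval (0.741 to 8.19) included 1, and with 300 kb it was 5.14.

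The windows also differed in what else they held. The Dlx3-Dlx4 window held the starts of 8 protein-coding genes, the Dlx1-Dlx2 window 4 and the Dlx5-Dlx6 window 3. GC content was 51.1% in the Dlx3-Dlx4 window, 44.3% in the Dlx1-Dlx2 window and 41.3% in the Dlx5-Dlx6 window. CpG dinucleotides numbered 16.2 per kb around Dlx3-Dlx4, 12.4 around Dlx1-Dlx2 and 9.49 around Dlx5-Dlx6. Soft-masked repeats took 23.2% of the Dlx3-Dlx4 window, 29.3% of the Dlx1-Dlx2 window and 38.2% of the Dlx5-Dlx6 window. The part of these features in the density was not tested. As a description, windows of the same margin around all 21938 coding genes had a median of 39.1 peaks per Mb, with quartiles of 20.2 and 62.1. Of them, 7.96% were denser than the Dlx3-Dlx4 window, 64.8% denser than that of Dlx1-Dlx2 and 64.9% denser than that of Dlx5-Dlx6. Among windows with the same number of coding starts, 5.48% of 1368 were denser than Dlx3-Dlx4, 58.8% of 2131 denser than Dlx1-Dlx2 and 49.4% of 1915 denser than Dlx5-Dlx6. Over the whole assembly the optimal set had 23.0 peaks per Mb.

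**Figure D3:**
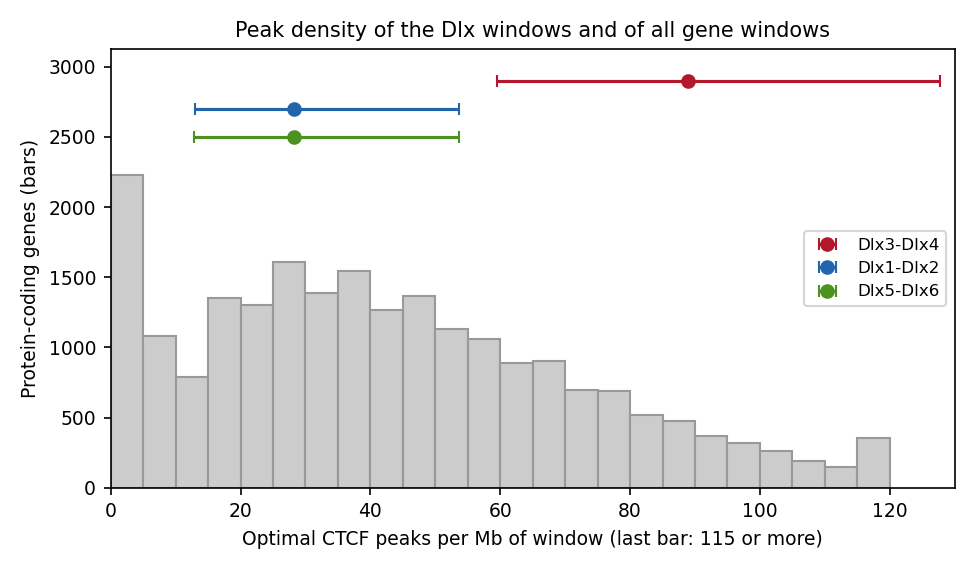
Optimal CTCF peaks per Mb in the 3 Dlx windows (points, with exact Poisson 95% intervals as bars, at arbitrary heights) over a histogram of the same density in the windows around 21938 protein-coding genes (number of genes on the vertical axis). The Dlx3-Dlx4 point at 88.9 lies in the upper tail, and the points of Dlx1-Dlx2 and Dlx5-Dlx6, both at 28.2, lie below the median gene window of 39.1.

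The division of peaks between the sides of a pair differed between windows. Around Dlx3-Dlx4, 21 peaks lay beyond Dlx3 and 8 beyond Dlx4. Around Dlx1-Dlx2, 4 lay beyond Dlx1 and 5 beyond Dlx2. Around Dlx5-Dlx6, 8 lay beyond Dlx5 and 0 beyond Dlx6, which left its side the barest of the 6. The coding neighbour on the Dlx3 side, Itga3, which encodes an integrin alpha chain, is 43.3 kb away, and that on the Dlx4 side, the tachykinin gene Tac4, is 115.3 kb away. Itga6, another integrin gene, lies 198.9 kb beyond Dlx2. Sdhaf3, which encodes an assembly factor of succinate dehydrogenase, lies 73.9 kb beyond Dlx5.

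Signal within each window spanned more than an order of magnitude. The median was 84.2 around Dlx3-Dlx4 (order-statistic 95% interval 40.03 to 344.8, range 15.2 to 512.8), 50.9 around Dlx1-Dlx2 (37.0 to 246.8, range 31.0 to 360.9) and 65.8 around Dlx5-Dlx6 (40.4 to 207.0, range 24.3 to 372.4). The 3 intervals overlapped and each held the median of all optimal peaks. With 50 kb on each side the medians were 46.2 around Dlx3-Dlx4 (12 peaks), 149.995 around Dlx1-Dlx2 (2 peaks) and 65.8 around Dlx5-Dlx6 (5 peaks). The order of the windows thus depended on the margin, but the Dlx1-Dlx2 value rested on 2 signals, 53.2 and 246.8. Among the strongest 10% of the optimal set, which starts at a signal of 320.7, stood 9 of 29 peaks around Dlx3-Dlx4, 1 of 9 around Dlx1-Dlx2 and 1 of 9 around Dlx5-Dlx6.

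**Figure D4:**
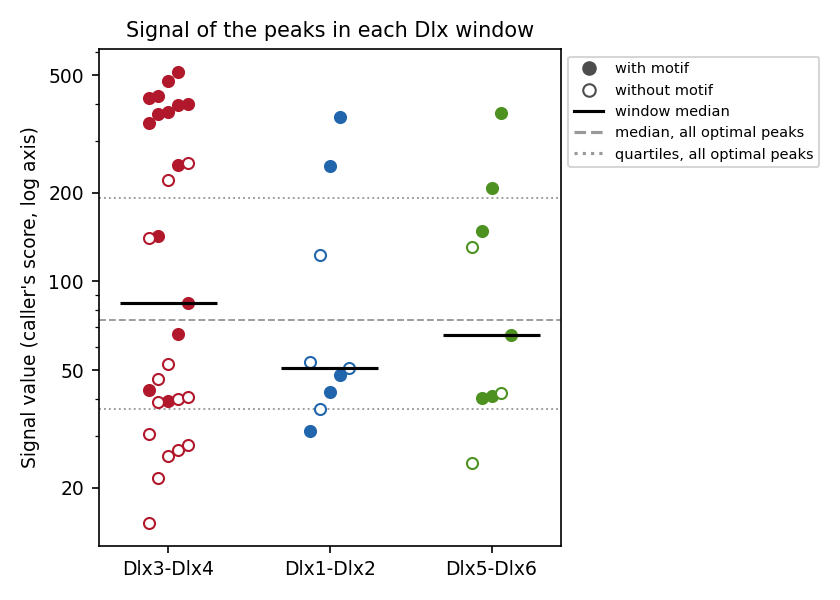
Signal of the 47 optimal peaks (score of the peak caller, log axis) in the 3 Dlx windows, with filled circles for peaks with a CTCF motif, open circles for peaks without one, black lines for window medians, and grey lines for the median (dashed) and quartiles (dotted) of all optimal peaks. The medians of 84.2, 50.9 and 65.8 lie between the grey quartiles of 36.8 and 191.1, and nearly all points above the upper quartile are filled.

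The strongest sites farther out lay at different distances in the 3 windows. At the far end of the Dlx3-Dlx4 window, 141.0 kb beyond Dlx3, a peak with a signal of 477.8 (chr11:94978955-94979268) ranked 631 in replicate 1 and 499 in replicate 2. A peak of 423.8 at the promoter of Sgca, which encodes alpha-sarcoglycan of the muscle dystrophin complex, lay 149.7 kb beyond Dlx3 and only 0.303 kb inside the edge of the window (chr11:94970253-94970569), and ranked 1532 in replicate 1 and 1537 in replicate 2. Just outside the opposite edge, by 2.08 kb, lay a peak of 302.3. The other 24 peaks of this window had signals from 15.2 to 419.3.

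In the Dlx1-Dlx2 window the strongest peak was not the one beside Dlx2 but one 52.3 kb beyond it, in intergenic DNA (chr2:71598897-71599150). It had a signal of 360.9 and ranked 4112 in replicate 1 and 4103 in replicate 2, with a motif on the plus strand, pointing away from Dlx2. The third strongest peak, 122.8 without a motif, lay 105.9 kb beyond Dlx2 (chr2:71652610-71652698), ranked 23160 in replicate 1 and 21940 in replicate 2. The remaining 5 peaks ranged from 31.0 to 53.2.

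In the Dlx5-Dlx6 window the peak 33.3 kb beyond Dlx5 (chr6:6915233-6915440) had a signal of 207.0 and ranked 14176 in replicate 1 and 15036 in replicate 2. Its motif pointed at Dlx5, as did that of the peak 3044 bp upstream. The third strongest peak, 148.0, lay 122.2 kb beyond Dlx5 in an intron of Sdhaf3 (chr6:7004169-7004324), ranked 18055 in replicate 1 and 21542 in replicate 2, with a motif that pointed away. The remaining 4 peaks ranged from 40.4 to 130.5.

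A match to the CTCF core motif, with at most 2 mismatches within 50 bp of the summit, was found under 26 of the 47 Dlx peaks, beside 65.4% of all optimal peaks. The share was 51.7% around Dlx3-Dlx4 (15 of 29, Wilson 95% interval 34.4 to 68.6), 55.6% around Dlx1-Dlx2 (5 of 9, 26.7 to 81.1) and 66.7% around Dlx5-Dlx6 (6 of 9, 35.4 to 87.9), and each interval included the share of all peaks. Perfect matches lay under 5 peaks around Dlx3-Dlx4, 1 around Dlx1-Dlx2 and 0 around Dlx5-Dlx6, beside 8.7% of all peaks. Motifs followed signal in the Dlx windows. Of the 16 Dlx peaks with a signal of 200 or more, 14 had a motif, against 12 of the 31 weaker ones. Over all optimal peaks, a motif lay under 88.1% of those with a signal of 200 or more and 58.4% of the others. The 2 strong peaks without one lay beyond Dlx4 in intergenic DNA (252.2) and at the promoter of Ppp1r9b, the spinophilin gene (220.7). A CpG stood inside 9 of the 15 matches around Dlx3-Dlx4, 1 of 5 around Dlx1-Dlx2 and 1 of 6 around Dlx5-Dlx6, beside 32.5% of all motif-bearing peaks.

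Motifs of both directions were mixed in each window. Around Dlx3-Dlx4, 7 motifs lay on the plus strand and 8 on the minus strand. The counts were 3 and 2 around Dlx1-Dlx2 and 4 and 2 around Dlx5-Dlx6. Around Dlx3-Dlx4 there were 14 pairs of neighbouring motif-bearing peaks, of which 4 converged, 5 diverged and 5 shared a direction. Of the 40266 such pairs in the whole set, 23.7% converged, 23.7% diverged and 52.6% shared a direction. Around Dlx1-Dlx2, 1 of 4 pairs was convergent, 1 divergent and 2 in the same direction. Around Dlx5-Dlx6, 1 of 5 was convergent, 2 were divergent and 2 ran in the same direction. With 4 or 5 pairs, a difference from the whole set was not detectable.

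By position, 6 of the 29 Dlx3-Dlx4 peaks, 2 of the 9 Dlx1-Dlx2 peaks and 2 of the 9 Dlx5-Dlx6 peaks lay in promoters of any annotated gene, the class given precedence over exons and introns, beside 21% of all optimal peaks. Within 1 kb of a coding start lay 5 peaks around Dlx3-Dlx4, 2 around Dlx1-Dlx2 and 2 around Dlx5-Dlx6, beside 17.7% of all. Introns held 5 around Dlx3-Dlx4, 1 around Dlx1-Dlx2 and 3 around Dlx5-Dlx6, beside 40% of all peaks. Intergenic DNA held 18 around Dlx3-Dlx4, 6 around Dlx1-Dlx2 and 4 around Dlx5-Dlx6, beside 33.8% of all. Exons outside promoters held 0 Dlx peaks, beside 5.18% of all, although the promoter peak of Hat1 has its summit in a UTR. Repeats held the summits of 6 peaks around Dlx3-Dlx4, 2 around Dlx1-Dlx2 and 1 around Dlx5-Dlx6, beside 18.4% of all. Around Dlx3-Dlx4, 4 of 8 coding genes had a promoter peak, beside 39.8% of all coding genes, and neither Dlx gene did. Around Dlx1-Dlx2 it was 2 of 4, Metap1d (signal 37.0) and the histone acetyltransferase gene Hat1 (50.9), and again neither Dlx gene. Around Dlx5-Dlx6 it was 2 of 3, Sdhaf3 (130.5) and Dlx5.

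Both libraries ranked the strong Dlx peaks alike and the weak ones less so. The 16 peaks with a signal of 200 or more stood between ranks 327 and 14176 in replicate 1 and between 197 and 15036 in replicate 2. The signal of the optimal set was made from both libraries, so choosing peaks by it favours high ranks in both. The likeness of the strong ranks is therefore partly built in. Among the strongest 62686 peaks of both libraries were 40 of the 47 Dlx peaks, beside 82.8% of all optimal peaks, made up of 25 of 29 around Dlx3-Dlx4, 7 of 9 around Dlx1-Dlx2 and 8 of 9 around Dlx5-Dlx6. The peak 8.23 kb upstream of Dlx3, with a signal of 21.6, was the farthest apart, at rank 202668 in replicate 1 and 48252 in replicate 2. The stricter conservative set, of 59979 peaks, overlapped 41 of the 47, beside 87.1% of all optimal peaks. The 6 without such an overlap had signals of 37.0 or less and included the promoter peak of Dlx5. Counted by its own summits, the conservative set held 30 peaks around Dlx3-Dlx4, 9 around Dlx1-Dlx2 and 8 around Dlx5-Dlx6. Its motif share was 63.3% (19 of 30) around Dlx3-Dlx4, 55.6% around Dlx1-Dlx2 and 75% around Dlx5-Dlx6. The motif share over all conservative peaks is not given here. For 22 of the 47 optimal Dlx peaks replicate 1 gave the better rank, and the share over all optimal peaks is not given here.

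**Figure D5:**
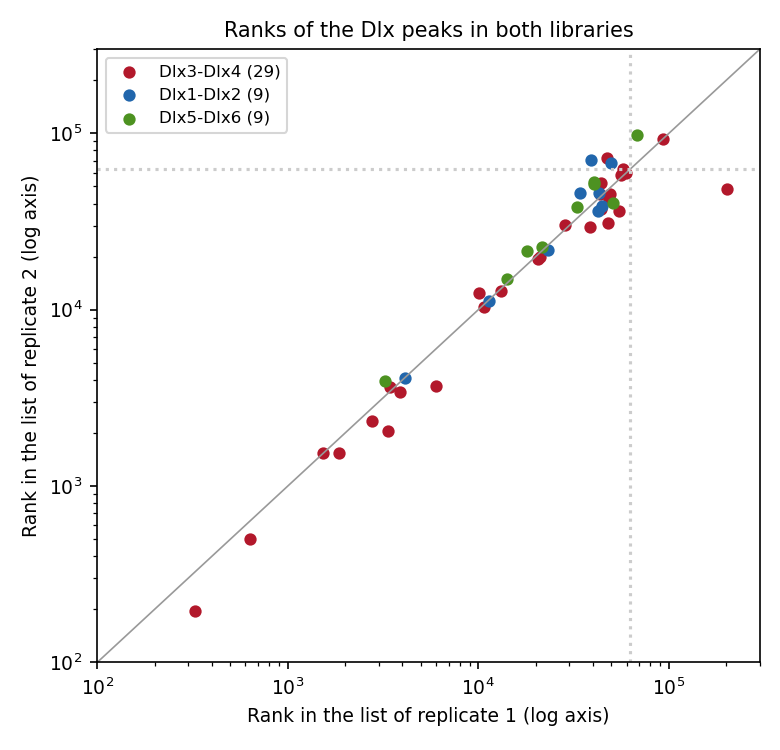
Rank of each of the 47 Dlx peaks in the list of replicate 2 against its rank in the list of replicate 1 (log axes, 1 is the strongest), coloured by window, with a diagonal of equal ranks and dotted lines at rank 62686. The 16 points up to rank 15036 in replicate 2 lie near the diagonal, and the point farthest from it is the weak peak upstream of Dlx3 at ranks 202668 and 48252.

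Genes that act with the Dlx factors were read in the same way. A forebrain list of 20 genes, most of them of the GABAergic lineage, with the cortical genes Tbr1 and Emx2 and the eye and cortex gene Pax6 beside them, had a promoter peak at 7 genes (35%, Wilson 95% interval 18.1 to 56.7). The strongest was at Gad1, which encodes a GABA-synthesising enzyme, with a signal of 205.7 and a motif, and ranks of 15153 in replicate 1 and 13566 in replicate 2. Zeb2, a repressor that acts downstream of Dlx genes in interneurons, had 157.1, the transcription factor gene Etv1 115.3 and Pax6 32.5, all without a motif. Emx2, a homeobox gene of the developing cortex, had no promoter peak.

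A craniofacial, limb and skeletal list of 20 genes had a promoter peak at 4 (20%, interval 8.07 to 41.6). Edn1, the ligand whose signal induces Dlx5 and Dlx6 in the lower jaw, had the strongest peak, 237.5 without a motif, with ranks of 12158 in replicate 1 and 11796 in replicate 2. Its receptor gene Ednra had 51.6, Runx2, the master regulator of bone, 43.5, and Bmp4 31.9. Alx1 and Alx4, which encode homeodomain factors of the facial skeleton, had none. The intervals of the forebrain and craniofacial lists overlapped each other. Both included the 39.8% of all coding genes, for promoters of 1 kb around any start site. With promoters of 500 bp, 5 forebrain and 2 craniofacial genes were occupied, beside 32.3% of all coding genes. With 5′ ends only it was 3 and 2, beside 31.8%, and no intervals are given for these counts. The median signal at the occupied promoters was 32.5 in the forebrain list and 47.5 in the craniofacial list, beside 75.4 over the 8734 occupied coding genes.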

How the data were processed

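CTCF ChIP-seq of newborn mouse hindbrain was available as deposited narrowPeak lists on mm10. Per the deposited descriptions of the files, single-library lists came from the alignments of that library with a control, a pooled list came from both, and IDR analysis of these lists gave a conservative and an optimal set. Not given in the sources used here are aligner, peak caller, IDR version and IDR threshold. The deposited signal is a score on the caller's scale, and another deposited column, the summit offset, gave each position. Read depth is unknown.

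Peaks were read with Python 3.11.15, pandas 2.3.3 and numpy 2.4.6, intervals came from scipy 1.17.1 and figures from matplotlib 3.10.9. Annotation was GENCODE vM21 and sequence GRCm38, of which mm10 is a build. Windows ran 150 kb beyond each pair. A promoter was 1 kb around any annotated start site. Matches to the CTCF core consensus (14 bases, either strand, at most 2 mismatches) were sought no farther than 50 bp from a summit. Peaks whose best matches tied between strands were left out of orientation counts. A peak's rank in a library is that of the overlapping peak with the nearest summit. The search was tested on simulated sequences whose planted matches had at most 1 mismatch, so recovery of matches with 2 mismatches was not tested.

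Densities have exact Poisson intervals, ratios exact conditional binomial intervals and shares Wilson intervals, all 95%. No p-value was computed, since there is 1 group. Peaks described in full were, per pair, the 3 with the largest signal, those between the outer ends or within 1 kb of a start of a Dlx gene or its antisense transcript, and the nearest beyond each end. Of each pathway list, at most 4 occupied genes (by promoter signal) and at most 3 unoccupied ones (alphabetical) are named, and a few genes under this rule are not reported here. A few other peaks were named after their values were seen. The members, lists and rules were chosen with earlier results of these data known. Alternatives used the 31343 strongest optimal peaks, the conservative set, each library alone, merged summits, other margins, mismatch limits, motif distances and promoter widths, and 5′ ends only. The alternatives for upstream peaks were added after seeing the data. Control libraries were not used here.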

Additional observations from a re-analysis of the deposited data

How the results depend on the processing

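Of 165 alternative values, 31 moved, 1 interval came to include 1 and 0 reversed. The other 133 stayed within the interval of the value as reported or, for counts, within 1.5 times it, and a called ratio kept an interval without 1. The interval that came to include 1 was that of the density ratio of Dlx3-Dlx4 to Dlx5-Dlx6, 2.26 with margins of 50 kb. Among the 133, 11 differed by more than 1.5 times. With margins of 50 kb the median signal was 46.2 around Dlx3-Dlx4 and 149.995 around Dlx1-Dlx2, the latter from 2 peaks. The Dlx1-Dlx2 density was then 16.9 per Mb, the ratio of Dlx3-Dlx4 to Dlx1-Dlx2 was 5.64 and that of Dlx1-Dlx2 to Dlx5-Dlx6 0.400. With 300 kb the Dlx5-Dlx6 density was 16.2, the ratio of Dlx3-Dlx4 to Dlx5-Dlx6 5.14 and that of Dlx1-Dlx2 to Dlx5-Dlx6 1.90. The ratio of Dlx3-Dlx4 to Dlx1-Dlx2 was 4.88 with the 31343 strongest peaks, that of Dlx1-Dlx2 to Dlx5-Dlx6 was 1.63 with replicate 1 only, and the Dlx1-Dlx2 motif share was 33.3% at 1 mismatch. The count of Dlx genes with a promoter peak, 1, was 0 in the conservative set, in the 31343 strongest peaks and with promoters of 500 bp, 3 with promoters of 2500 bp, and 0 to 0 when either library was set aside. With the 31343 strongest peaks the windows of Dlx3-Dlx4, Dlx1-Dlx2 and Dlx5-Dlx6 held 15, 3 and 4 peaks, or 46.0, 9.41 and 12.5 per Mb, the motif share around Dlx3-Dlx4 was 80%, convergent pairs numbered 0 around Dlx1-Dlx2 and 0 around Dlx5-Dlx6, and promoter peaks were left at 3 forebrain and 1 craniofacial genes. With a margin of 50 kb, convergent pairs numbered 1 around Dlx3-Dlx4 and 0 around Dlx1-Dlx2, and with 300 kb 11, 2 and 2. With at most 1 mismatch the Dlx5-Dlx6 motif share was 33.3%, with 0 convergent pairs. With at most 3 mismatches the shares were 79.3% around Dlx3-Dlx4 and 88.9% around Dlx1-Dlx2. The 65.4% of all optimal peaks holds for at most 2 mismatches in the full set. Motif shares at other limits, in the conservative set, or with the 31343 strongest peaks, cannot be set against it. Craniofacial genes with a promoter peak numbered 2 at 500 bp, 7 at 2500 bp and 2 with 5′ ends only, forebrain genes 3 with 5′ ends only. Of all coding genes, 32.3% had a promoter peak at 500 bp, 49.2% at 2500 bp and 31.8% with 5′ ends only. That share was 20.2% with the 31343 strongest peaks, 38.5% in the conservative set, 40.8% with replicate 1 only and 40.4% with replicate 2 only. With each library alone, the forebrain count lay between 4 (replicate 1 only) and 7. In the 62686 strongest peaks of replicate 1 alone the Dlx1-Dlx2 window held 13 peaks and the ratio of Dlx3-Dlx4 to it was 2.25. The cause of these shifts was not tested, except that fewer peaks or a narrower search lowers counts by construction. No paired analysis was possible because there is 1 group. Depth is unknown, so weak peaks in particular cannot be told from missing ones at other depths.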
